A study of Drosophila melanogaster with 6 samples.

Results

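The 8 genes described here act as brakes on cell growth around the nutrient-sensing kinase complex mTORC1 (TORC1 in flies): REPTOR and its partner REPTOR-BP, scylla (scyl) and charybdis (chrb), PRAS40, Thor, sima and unkempt (unk). They were chosen by symbol, with earlier results of these data known. All 8 symbols were found among the 8470 genes of the authors' deposited table and among the 17609 genes summed here from transcripts. mRNA was sequenced from YFP-positive cells sorted from the midguts of adult female flies, in 3 control libraries (numbered 1, 2 and 3) and 3 NF-YA RNAi libraries (numbered 2, 4 and 5). Both groups carried the temperature-sensitive driver Esg-Gal4-ts, a UAS-2x YFP reporter and Su(H)-GBE-Gal80, a repressor that silences Gal4 in enteroblasts, so that YFP and RNAi are expressed in intestinal stem cells (ISCs). The control flies carried Oregon R chromosomes in place of the RNAi construct, and the NF-YA RNAi flies carried VDRC line 106132, so the RNAi and the strain background cannot be told apart. The sample labels give 3 days at 18 °C, 3 days at 29 °C and 3 days on holidic food, a chemically defined diet, whereas the methods give 3 days on the holidic diet at 29 °C. The age of the flies in days and the number of guts per library are not given in the sources used here. The libraries are described as independent samples.

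TORC1 promotes translation and growth when nutrients and insulin are plentiful, and cells hold several brakes against it. When TORC1 is inhibited, the bZIP transcription factor REPTOR loses its inhibitory phosphorylation, enters the nucleus and, with the bZIP protein REPTOR-BP, switches on a large share of the genes that TORC1 keeps low. scyl and chrb are the fly homologs of mammalian REDD1 and act on TORC1 through the TSC complex. PRAS40 binds TORC1 and inhibits it. Thor, the fly 4E-BP, binds the cap-binding protein eIF4E and holds back translation until TORC1 phosphorylates it. sima is the fly HIF-1α, the oxygen-regulated transcription factor that induces scyl in hypoxia, and unk encodes a zinc finger protein that works with Headcase to restrain growth.

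The label of the groups was examined first with the targeted gene. Nf-YA, which encodes a subunit of the trimeric CCAAT-binding factor NF-Y, was at 16.0, 19.6 and 23.5 CPM for control libraries 1, 2 and 3 but at 3.57, 4.91 and 4.29 CPM for NF-YA RNAi libraries 2, 4 and 5 (log2 fold change -2.21, SE 0.20, edgeR adjusted p = 0.000192). CPM here are counts relative to the TMM-normalized size of their library, and they compare 1 gene between libraries. Estimated counts summed to between 77092609 and 122269943 per library. Of 9083 genes that passed the filter on low counts, 568 were called higher (6.25%) and 731 lower (8.05%) in NF-YA RNAi at a Benjamini-Hochberg adjusted p under 0.05. Higher genes thus made up 43.7% of calls, and 59.3% when libraries were scaled by their totals only. The progenitor markers esg (278 ± 32.1 CPM in control, SD, n = 3) and Delta (9.44 ± 1.60 CPM) were present in the sorted cells. The sum of 8 progenitor markers was 2436 to 2867 CPM over the controls and 2005 to 2147 CPM over the NF-YA RNAi libraries, and 4 of 8 (esg, Egfr, Stat92E and heca) were called lower, with a log2 fold change of -0.62 for esg (SE 0.11, edgeR adjusted p = 0.00700). Markers of other midgut cells were present as well. The summed level of 9 enterocyte markers ranged from 1699 to 4657 CPM over the controls and from 318 to 1254 CPM over the NF-YA RNAi libraries, and 5 of the 9 were called lower. Digestive enzymes such as Amy-p carry most of this sum. A lower mean was seen for 8 of the 9 markers, also for Myo31DF, which is not a digestive enzyme. Myo31DF was at 297 ± 26.1 CPM in controls and 162 ± 33.9 CPM with NF-YA RNAi (SD, n = 3; log2 fold change -0.87, edgeR adjusted p = 0.00525). The enterocyte transcription factor nub alone had a higher mean, at 7.38 ± 0.47 CPM in controls and 10.7 ± 2.65 CPM with NF-YA RNAi (SD, n = 3; log2 fold change 0.54, edgeR adjusted p = 0.105). Each NF-YA RNAi library was above all controls for nub. The sum of 9 enteroendocrine markers ranged from 1647 to 2084 CPM and from 467 to 1086 CPM, respectively, with 4 of 9 called lower. Visceral muscle markers summed to 10.5 to 46.3 CPM and 8.23 to 13.1 CPM (1 of 10 called lower), and hemocyte markers to 11.9 to 19.1 and 5.72 to 8.17 CPM (2 of 4 called lower and 1 higher). Among these, bt, wupA, Mlc1 and Prm of muscle and Hml of hemocytes had no counts in at least 1 library. Control library 1 had the highest sum of progenitor, of enterocyte and of muscle markers. In sorted bulk samples, fewer cells of a type and less RNA per cell cannot be told apart.

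All 8 growth brakes passed the filter on low counts, with between 1646 (unk) and 76363 (Thor) estimated counts per library. All 8 had a lower mean in NF-YA RNAi than in control, as did 4691 of the 9083 genes tested. For Thor the difference was small, and its direction turned with scaling by library totals and without control library 3. REPTOR, REPTOR-BP, scyl, PRAS40 and sima were called lower, so 5 of 8 were called against 8.05% of all genes tested. In the same 5 genes every NF-YA RNAi library was below every control library, which was the case for 19.4% of all genes tested, while the groups did not overlap in either direction for 36.0%. The 8 log2 fold changes had a median of -0.49, beside a median of -0.02 over all genes tested. Because the 8 genes were chosen with earlier results of these data known, these contrasts describe them and are no independent test. chrb, unk and Thor did not pass the test.

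**Figure D1:**
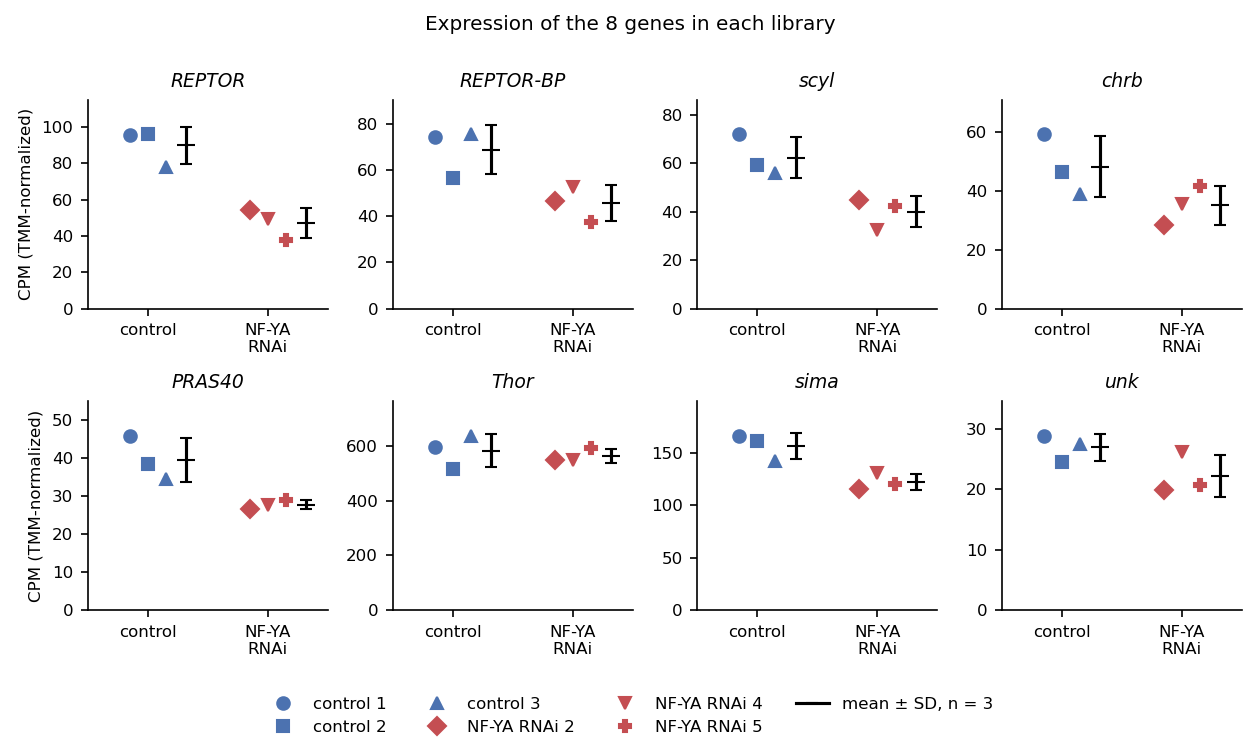
Expression of each growth brake in CPM (vertical axis, from 0, a separate scale for each gene) in the 3 control libraries (blue) and the 3 NF-YA RNAi libraries (red). Points are single libraries, and the black mark and bar give the mean and SD of each group. For REPTOR the control libraries lay between 78.0 and 95.9 CPM and the NF-YA RNAi libraries between 37.9 and 54.0 CPM, while for Thor the groups overlapped.

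REPTOR (FBgn0039209) showed the largest change of the 8 genes. It lies on 3R at 24557368 to 24582864 on the minus strand of BDGP6.54. Control libraries 1, 2 and 3 gave 95.5, 95.9 and 78.0 CPM for REPTOR. NF-YA RNAi libraries 2, 4 and 5 gave 54.0, 49.0 and 37.9 CPM, and values of other genes are given in the same order. Thus the highest NF-YA RNAi library remained well below the lowest control library, and NF-YA RNAi library 5 had the lowest level. The mean fell from 89.8 ± 10.2 to 47.0 ± 8.23 CPM (SD, n = 3), to 52.3% of control, with a log2 fold change of -0.93 (SE 0.15, 95% interval -1.26 to -0.61, edgeR adjusted p = 0.00401). REPTOR was called lower in all 14 alternative fits, including the 6 that leave out 1 library each, with log2 fold changes from -1.05 to -0.79.

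REPTOR-BP (FBgn0032202; 2L, 10264125 to 10265229) gave 74.4, 56.7 and 75.6 CPM among the controls. Under NF-YA RNAi it gave 46.8, 52.8 and 37.3 CPM. The groups did not overlap, but control library 2 and NF-YA RNAi library 4 were only a few CPM apart. The level of this REPTOR partner fell to 66.3% of control (log2 fold change -0.59, SE 0.16, 95% interval -0.94 to -0.25, edgeR adjusted p = 0.0333). It was no longer called when any of control libraries 1 and 3 and NF-YA RNAi libraries 2 and 5 was left out (adjusted p up to 0.126), or with scaling by library totals (adjusted p = 0.0515). In both REPTOR and REPTOR-BP, NF-YA RNAi library 5 was the lowest of the 6 libraries.

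The REDD1 homologs scyl and chrb both lie on 3L, with 231377 bases between them. scyl (FBgn0041094; 3L, 11252307 to 11256172) was measured at 71.9, 59.3 and 55.8 CPM among the controls. With NF-YA RNAi, scyl was at 44.8, 32.6 and 42.5 CPM. All 3 NF-YA RNAi libraries were below the control libraries, and the mean was 64.2% of control (log2 fold change -0.64, SE 0.15, 95% interval -0.97 to -0.31, edgeR adjusted p = 0.0208). The call of scyl was lost without control library 1, NF-YA RNAi library 4 or NF-YA RNAi library 5, with an adjusted p of at most 0.0744.

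chrb (FBgn0036165; 3L, 11487550 to 11499055) showed 59.1, 46.5 and 38.8 CPM among the controls. After NF-YA RNAi, chrb showed 28.4, 35.4 and 41.5 CPM. Here the groups overlapped, since NF-YA RNAi library 5 was above control library 3, and the libraries of each group differed more from each other than for scyl. The log2 fold change of -0.46 (SE 0.18, 95% interval -0.86 to -0.06) did not pass the test after adjustment (edgeR adjusted p = 0.123, unadjusted p = 0.0299), and it was -0.28 without control library 1. Most chrb expression was assigned to transcript FBtr0482701 of 1928 bases, which held 88.3% ± 1.36 of chrb TPM in control (SD, n = 3) and 86.7% ± 1.76 in NF-YA RNAi. TPM are scaled by transcript length as well as by library total. This transcript is in no gene of the annotation used here and was given to chrb because the deposited chrb values are matched only with it. Without such transcripts, an alternative chosen after seeing the data, chrb had a log2 fold change of -0.30 (edgeR adjusted p = 0.488). The ratio of chrb to scyl TPM was 0.85, 0.83 and 0.74 among the controls and 0.67, 1.15 and 1.003 with NF-YA RNAi. This ratio was lowest in NF-YA RNAi library 2 and highest in library 4, so the balance of the homologs differed more among NF-YA RNAi libraries than between the groups (log2 difference 0.19, exact two-sided permutation test p = 0.5, adjusted over 3 ratios p = 0.5, smallest possible p = 0.1).

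PRAS40 (FBgn0267824; 2R, 14481187 to 14497312) has a single annotated transcript, with 1686 coding bases. Controls gave 45.9, 38.5 and 34.5 CPM for this gene. With NF-YA RNAi it was at 26.7, 27.7 and 28.9 CPM. The NF-YA RNAi libraries were close to each other (27.8 ± 1.13 CPM, SD, n = 3), whereas the control libraries were spread more widely (39.6 ± 5.78 CPM). The level of this TORC1 inhibitor fell to 70.1% of control (log2 fold change -0.51, SE 0.13, 95% interval -0.80 to -0.23, edgeR adjusted p = 0.0277). PRAS40 remained called without control library 3, but not without any other single library (adjusted p up to 0.0919).

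Thor (FBgn0261560; 2L, 3478434 to 3479612) had the highest level of the 8 genes in TPM. Its control values were 596, 518 and 638 CPM. Its values with NF-YA RNAi were 551, 549 and 593 CPM. Every NF-YA RNAi library lay within the range of the control libraries, and the log2 fold change was -0.05 (SE 0.10, 95% interval -0.27 to 0.17, edgeR adjusted p = 0.791), which turned to 0.040 with scaling by library totals and to 0.018 without control library 3. The interval corresponds to a change between -17.0% and 12.5%. The ratio of Thor to its target eIF4E1, in TPM, was 6.64, 7.54 and 7.69 among the controls and 6.77, 5.84 and 5.91 with NF-YA RNAi. NF-YA RNAi library 2 lay between control libraries 1 and 2, and the log2 difference was -0.24 (exact two-sided permutation test p = 0.2, adjusted over 3 ratios p = 0.3, smallest possible p = 0.1). These are mRNA levels, and phosphorylation of Thor protein was not measured in these libraries.

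sima (FBgn0266411; 3R, 30058311 to 30121798) gave 166, 161 and 143 CPM among the controls. Under NF-YA RNAi, sima gave 116, 131 and 120 CPM. The groups did not overlap, and the mean fell to 78.1% of control, the smallest change among the 5 genes called (log2 fold change -0.36, SE 0.10, 95% interval -0.58 to -0.13, edgeR adjusted p = 0.0419). The call of sima held only without control library 3 among the 6 fits that leave out a library (adjusted p up to 0.147), and it was lost with scaling by library totals (adjusted p = 0.102).

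unk (FBgn0004395; 3R, 23149653 to 23157862, minus strand) was measured at 28.9, 24.5 and 27.5 CPM among the controls. After NF-YA RNAi it was at 19.9, 26.2 and 20.7 CPM. NF-YA RNAi library 4 was above control library 2, and the log2 fold change of -0.28 (SE 0.14, 95% interval -0.59 to 0.04) did not pass the test (edgeR adjusted p = 0.232). Its partner Headcase, listed as heca in the deposited table and also a progenitor marker, was at 244, 216 and 207 CPM among the controls and at 165, 149 and 164 CPM with NF-YA RNAi. Unlike unk, heca was called lower (log2 fold change -0.48, SE 0.10, edgeR adjusted p = 0.0135), a call lost without NF-YA RNAi library 4 or 5 (adjusted p up to 0.0667). The difference between unk and heca was not tested.

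The 8 genes did not follow a single order of libraries. Among the NF-YA RNAi libraries, library 5 was the lowest for REPTOR and REPTOR-BP, library 4 for scyl and Thor, and library 2 for chrb, PRAS40, sima and unk. Among the controls, library 1 was the highest of all 6 libraries for scyl, chrb, PRAS40, sima and unk, which made it the highest for 5 of the 8 genes. Control library 1 also had the highest progenitor, enterocyte and muscle marker sums, and the part of these markers in the result was not tested. Without control library 1, REPTOR alone remained called among the 8 genes, while 3.78% of the genes tested in that fit were called lower. Without control library 2, 3 of the 8 genes were called (4.53% of all genes called lower), and 4 without control library 3 (7.39%). The number was 2 without NF-YA RNAi library 2 (7.94%), 2 without library 4 (3.38%) and 1, again REPTOR, without library 5 (3.6%).

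The deposited TPM, which are comparable between genes, were used to rank the growth brakes. In control ISCs, Thor had 932 ± 64.2 TPM (SD, n = 3) and REPTOR-BP 178 ± 22.3 TPM, both above the other 6 genes in each library. The control means were 25.8 ± 2.17 TPM for sima, 23.5 ± 2.76 for scyl, 19.0 ± 3.57 for chrb and 18.6 ± 2.96 for REPTOR. The ranges of control libraries overlapped between sima and scyl, between scyl and chrb, and between chrb and REPTOR, so these neighbours were not separated by their spread, whereas sima was above all control values of chrb and REPTOR. Within each control library, sima was above scyl and scyl above both chrb and REPTOR. PRAS40 with 13.3 ± 1.73 TPM and unk with 6.99 ± 0.30 TPM were below them in every control library. In NF-YA RNAi libraries the means followed the same order, with 9.99 ± 2.17 TPM for REPTOR, close to the 9.88 ± 0.38 TPM of PRAS40. TPM are scaled to each library's total, and for Thor the mean TPM was slightly higher in NF-YA RNAi (959 ± 36.4) than in control, while its mean CPM was slightly lower.

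**Figure D2:**
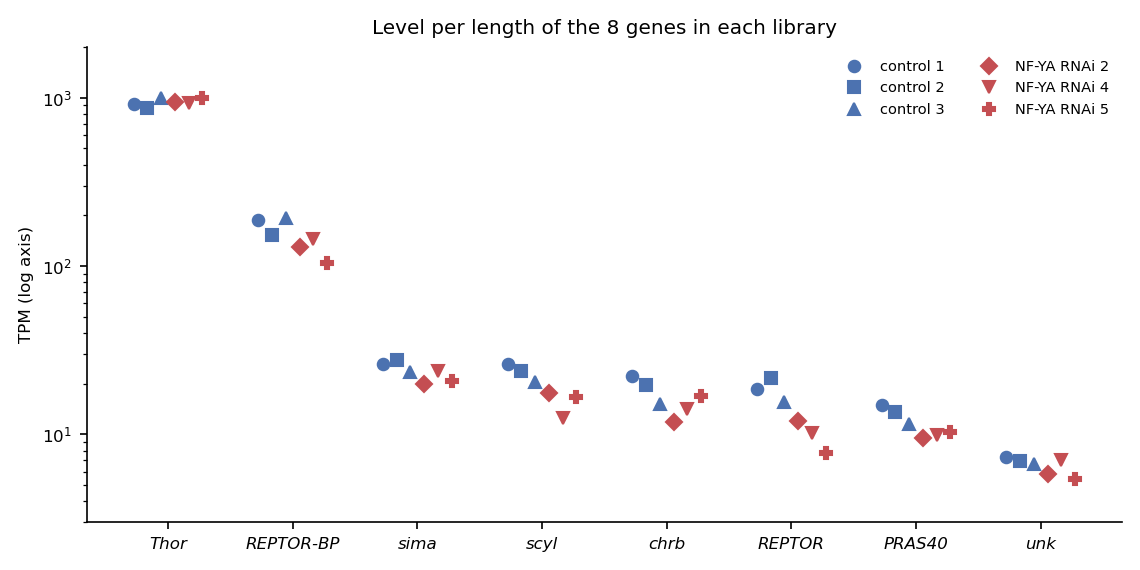
Level per transcript length of the 8 growth brakes in TPM (vertical log axis), ordered by their control mean, with 1 point per library (control blue, NF-YA RNAi red). The control mean was 932 TPM for Thor and 178 TPM for REPTOR-BP. The control means of sima, scyl, chrb and REPTOR lay close together, between 18.6 and 25.8 TPM.

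REPTOR-BP mRNA exceeded REPTOR mRNA in every library. The ratio of REPTOR-BP to REPTOR TPM was 10.02, 7.07 and 12.4 among the controls and 10.8, 14.3 and 13.4 with NF-YA RNAi. The 2 highest ratios were in NF-YA RNAi libraries 4 and 5, while library 2 lay within the control range (log2 difference 0.41, exact two-sided permutation test p = 0.2, adjusted over 3 ratios p = 0.3). The smallest p possible in this design is 0.1, so the test could not pass the threshold.

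Transcript estimates show which forms of the genes were present, although the assignment of reads to similar transcripts by Salmon carries an error that the deposited values do not give. REPTOR has 7 annotated transcripts from 4 start sites. The distal start site, the most upstream, gave 13.3, 17.2 and 11.2 TPM among the controls and 8.65, 8.23 and 7.002 TPM with NF-YA RNAi. The 2 proximal start sites, 530 bases apart and up to 10899 bases downstream, together gave 5.43, 4.40 and 4.41 TPM among the controls and 3.39, 1.98 and 0.727 TPM with NF-YA RNAi. For both classes, each NF-YA RNAi library was thus below all controls, and the proximal share was lowest in NF-YA RNAi library 5. The share of REPTOR TPM from the distal start was 74.1% ± 4.77 in control and 81.0% ± 9.40 in NF-YA RNAi (SD, n = 3). Of the proximal transcripts, FBtr0345204 accounted for the low values, with 4.30, 2.73 and 3.31 TPM among the controls and 2.03, 0.301 and 0 TPM with NF-YA RNAi. The remaining start site had transcripts listed at 0 TPM in each library. Transcripts with 2265 and with 2442 coding bases held 47.2% and 52.8% of REPTOR TPM in control and 45.9% and 54.2% in NF-YA RNAi.

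sima is read mainly from an internal start site, 41209 bases downstream of the first, in a transcript with 2607 coding bases in place of 4521. It gave 18.0, 18.5 and 16.7 TPM among the controls and 12.3, 17.5 and 13.7 TPM with NF-YA RNAi. The upstream start sites together gave 8.32, 9.11 and 6.64 TPM among the controls and 7.67, 6.19 and 6.98 TPM with NF-YA RNAi. For each class the groups overlapped, and the internal start held 69.0% ± 2.35 of sima TPM in control and 67.2% ± 6.20 in NF-YA RNAi (SD, n = 3). Shares of the Thor start sites and of the main REPTOR-BP transcript were also close between the groups. The upstream of the 2 Thor start sites, 88 bases apart, held 64.0% ± 7.16 and 65.0% ± 3.34 of Thor TPM. The REPTOR-BP transcript with 279 coding bases held 77.7% ± 0.85 and 76.8% ± 7.72. scyl, PRAS40 and unk each have 1 annotated start site. The shorter scyl transcript, FBtr0076168, held 81.5% ± 3.82 of scyl TPM in control and 75.6% ± 4.99 in NF-YA RNAi. It gave 20.7, 20.5 and 16.2 TPM among the controls and 13.7, 8.69 and 13.3 TPM with NF-YA RNAi. The longer one, FBtr0339908, gave 5.28, 3.37 and 4.35 TPM and 3.93, 3.74 and 3.49 TPM, respectively, and its groups overlapped. REPTOR overlaps the antisense lncRNA:CR46094 over 535 bases, and sima overlaps lncRNA:CR46112 on its own strand over 536 bases, but these had at most 0.430 and 0.0232 TPM in a library.

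**Figure D3:**
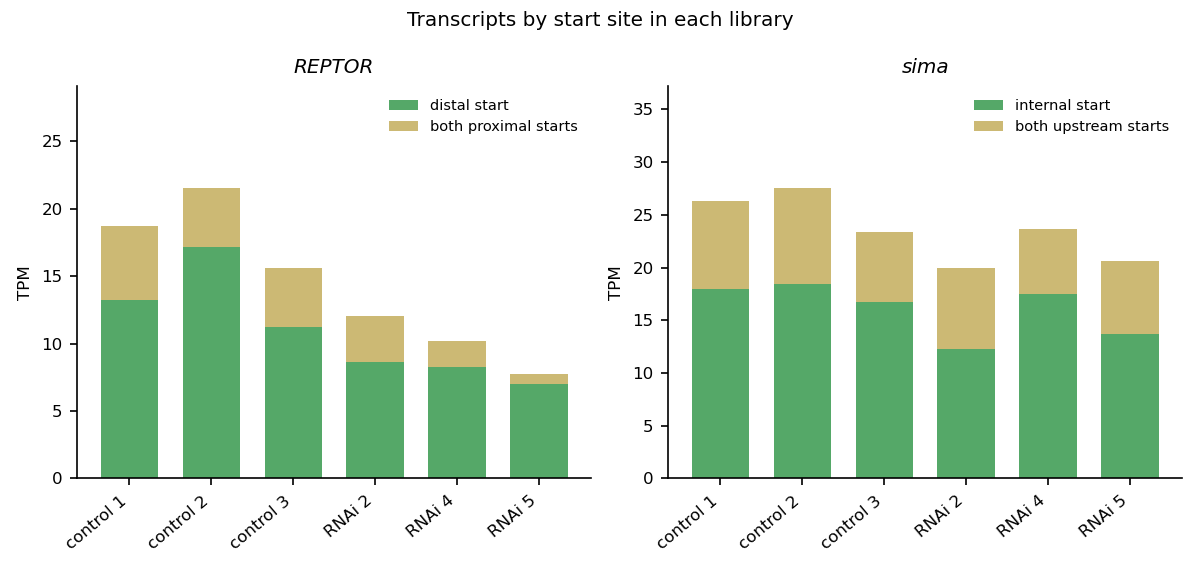
TPM of REPTOR (left) and sima (right) in each library, split by transcript start site (stacked bars from 0). In REPTOR, the distal start fell from between 11.2 and 17.2 TPM in control to between 7.002 and 8.65 TPM with NF-YA RNAi, and in sima the internal start held most of the TPM in every library.

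The genes around the growth brakes were examined next, from lists of 39 genes of which 35 passed the filter on low counts. The lists too were chosen with earlier results of these data known. Of these 35 genes, 8 were called lower and 3 higher, against 14.3% of all genes tested called in either direction, and their median log2 fold change of -0.02 equalled that of all genes tested. The number called was between 2 and 10 when 1 library was left out, and 2, Sesn and bmm, without NF-YA RNAi library 4 or 5. Without control library 1 it was 4, and without control library 2 it was 6. With scaling by library totals Pdk1 and foxo were not called, and 14-3-3epsilon was not called in any fit that left out a library.

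Of 11 genes of the TORC1 core and its insulin inputs, 1 was called, the insulin input Pdk1, which was lower, beside 14.3% of all genes tested called in either direction. mTor, the kinase, was at 29.9 ± 3.05 CPM in controls and at 29.5 ± 6.08 CPM with NF-YA RNAi (SD, n = 3; log2 fold change -0.02, SE 0.16, edgeR adjusted p = 0.954), a direction that turned in 5 alternatives. raptor, the subunit that binds substrates, had a log2 fold change of -0.10 (SE 0.10, edgeR adjusted p = 0.547), and RagA-B, a GTPase that brings TORC1 to the lysosome, was at the upper end of this list with 0.33 (SE 0.23, edgeR adjusted p = 0.398). Pdk1, which phosphorylates Akt and S6k, had a log2 fold change of -0.54 (SE 0.15, edgeR adjusted p = 0.0373). Among 4 amino acid brakes that act on TORC1 through the Rag GTPases, 2 were called lower. Sesn, the leucine-binding sestrin, was at 60.1, 55.9 and 44.2 CPM among the controls and at 29.3, 28.8 and 24.1 CPM with NF-YA RNAi, with no overlap and a log2 fold change of -0.96 (SE 0.14, edgeR adjusted p = 0.00315), close to that of REPTOR. The GATOR1 subunit Iml1 had -0.51 (SE 0.11, edgeR adjusted p = 0.0163), whereas its GATOR1 partners Nprl2 and Nprl3 had -0.01 (SE 0.20) and 0.05 (SE 0.18) and were not called. 14-3-3epsilon, one of the 2 proteins of the family that hold phosphorylated REPTOR in the cytoplasm, was called higher (log2 fold change 0.26, SE 0.08, edgeR adjusted p = 0.0484), and 14-3-3zeta was not (0.13, SE 0.12, edgeR adjusted p = 0.547).

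foxo, the insulin-inhibited forkhead factor that activates Thor transcription, was called lower together with 2 of its known targets, although Thor was not called. foxo was at 91.1, 73.0 and 65.6 CPM among the controls and at 50.2, 57.4 and 54.1 CPM with NF-YA RNAi, with a log2 fold change of -0.51 (SE 0.13, edgeR adjusted p = 0.0322). The triglyceride lipase bmm was at 37.2, 37.4 and 27.8 CPM among the controls and at 16.7, 15.9 and 12.3 CPM with NF-YA RNAi, the largest change in these lists (log2 fold change -1.19, SE 0.17, edgeR adjusted p = 0.00249). The insulin receptor InR fell by 0.65 on the log2 scale (SE 0.14, edgeR adjusted p = 0.0152). For foxo, bmm and InR the groups did not overlap. Of all genes tested, 19.4% were lower without overlap and 8.05% were called lower. The call of foxo held only without control library 3 among the 6 fits that leave out a library (edgeR adjusted p up to 0.102). That of InR was lost without control library 1, NF-YA RNAi library 4 or NF-YA RNAi library 5 (edgeR adjusted p up to 0.0678), while bmm remained called in each of these fits.

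The partners of Thor in translation initiation moved in different directions. Of 9 genes listed, 5 passed the filter. The cap-binding eIF4E1 was at 174 ± 22.1 CPM in controls and at 196 ± 18.9 CPM with NF-YA RNAi (SD, n = 3; log2 fold change 0.17, SE 0.12, edgeR adjusted p = 0.396). The scaffold eIF4G1 was higher in NF-YA RNAi, with 71.8, 82.9 and 90.3 CPM against 58.6, 48.9 and 55.9 CPM among the controls (log2 fold change 0.58, SE 0.12, edgeR adjusted p = 0.0124). Conversely, the RNA helicase eIF4A was lower, with 2556, 2039 and 2085 CPM against 3112, 3306 and 2838 CPM (log2 fold change -0.47, SE 0.10, edgeR adjusted p = 0.0164).

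Neither the dimer partner nor the oxygen-dependent regulators of sima were called. tgo, the HIF-1β homolog, had a log2 fold change of -0.19 (SE 0.11, edgeR adjusted p = 0.304), the prolyl hydroxylase Hph 0.18 (SE 0.10, edgeR adjusted p = 0.291) and Vhl 0.41 (SE 0.27, edgeR adjusted p = 0.375). Ldh, a target of sima in hypoxia, gave 267, 317 and 363 CPM among the controls. With NF-YA RNAi, Ldh gave 466, 413 and 459 CPM. Ldh was therefore called higher (log2 fold change 0.50, SE 0.12, edgeR adjusted p = 0.0242), while sima and its other target scyl were called lower. The call of Ldh, like that of sima, held only without control library 3 among the 6 fits that leave out a library (edgeR adjusted p of Ldh up to 0.0899). Of 5 genes of the integrated stress response, another input to Thor, 0 were called by edgeR or by DESeq2, and PPP1R15 alone had an unadjusted p under 0.05 (log2 fold change 0.27, edgeR adjusted p = 0.165). crc, the fly ATF4, had a log2 fold change of -0.14 (SE 0.09, edgeR adjusted p = 0.355).

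**Figure D4:**
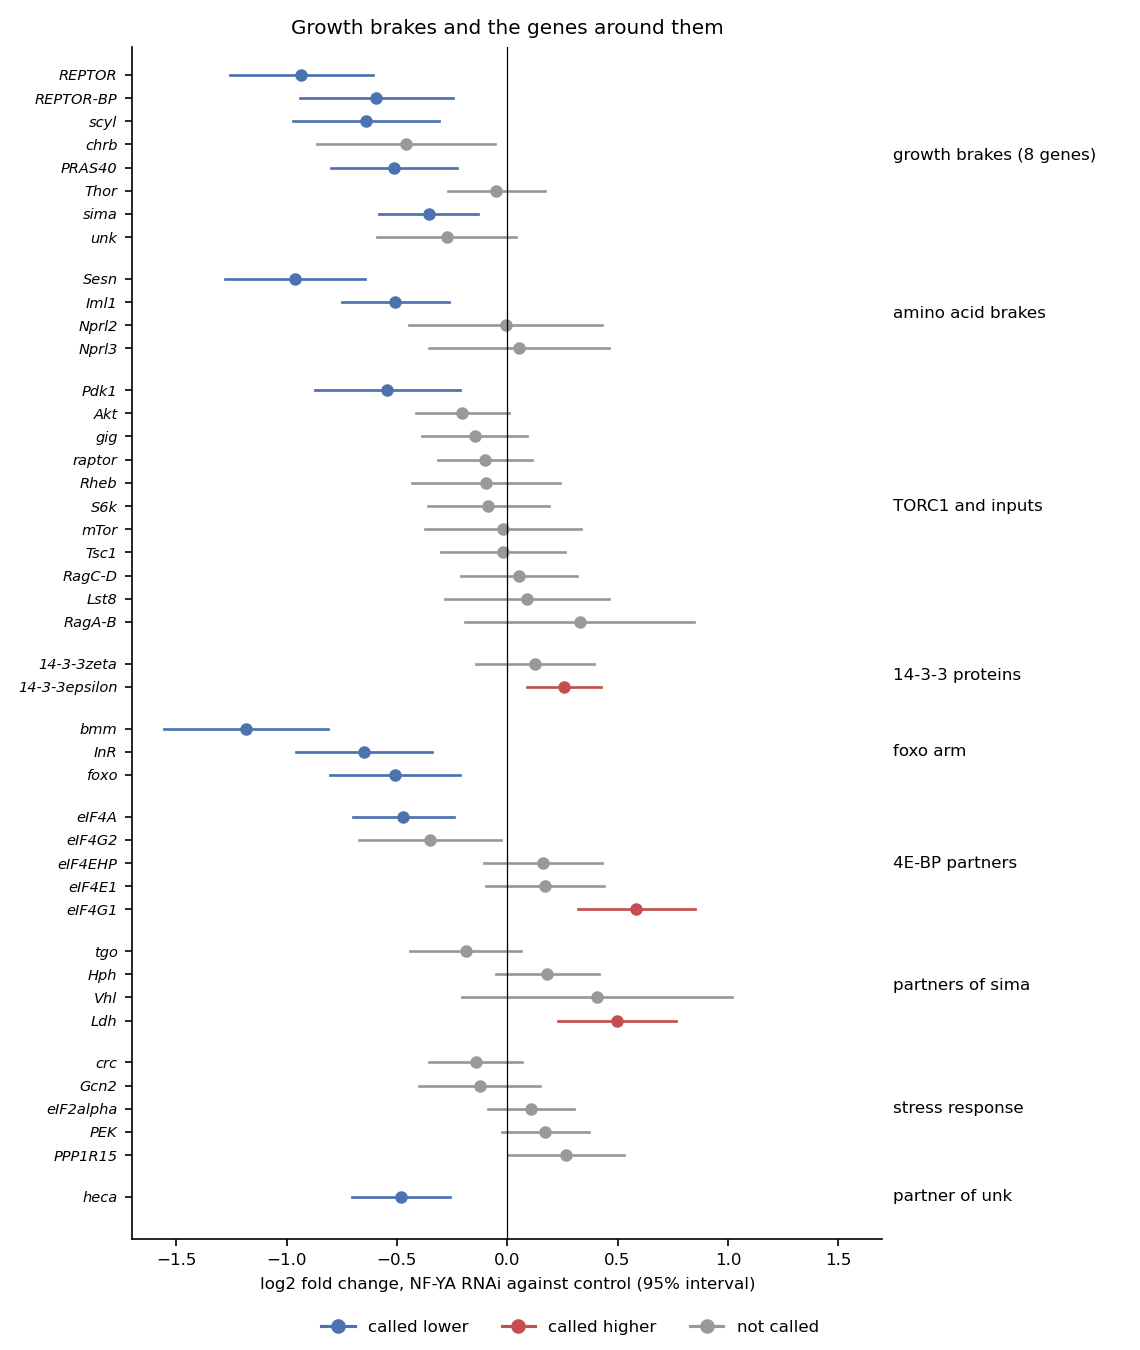
Log2 fold change of NF-YA RNAi against control (horizontal axis) with its 95% interval for the 8 growth brakes and the 35 tested genes around them, grouped by list (right). Genes called lower are blue, genes called higher red and all others grey. Of the growth brakes 5 were called lower, and REPTOR (-0.93) lay furthest from 0 among them.

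Of the other NF-Y subunits, neither was called. Nf-YC had a log2 fold change of -0.33 (SE 0.15, edgeR adjusted p = 0.180) and Nf-YB, at 2.90 ± 0.43 CPM in control, of 0.002 (SE 0.32, edgeR adjusted p = 0.998), a direction that turned in 6 alternatives. Finally, the gene whose profile over the 6 libraries was most like that of each growth brake called was sought, using Pearson's r of log2 CPM as a description. It was eco for REPTOR (r = 0.998), hng2 for REPTOR-BP (r = 0.994), RpL17 for scyl (r = 0.997), pyd for PRAS40 (r = 0.994) and Ing3 for sima (r = 0.999). Between 46 and 345 genes had an r over 0.95 with each of them, and all points of these correlations share the same 6 libraries and 2 groups.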

How the data were processed

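The authors deposited estimated counts and TPM from Salmon for 34989 transcripts per library, and a table of 8470 genes with DESeq2 results. The authors' table also holds 1 signal value per gene and library, a gene count scaled by normalization factors, which served in the limma and ratio alternatives and to place transcripts that are in no annotated gene. The table's log2 fold changes, p-values and adjusted p-values are the authors' own comparison and were not used. The methods name nf-core/rnaseq, Trim Galore, STAR and Salmon with a FlyBase genome. The submitters' processing notes instead list FastQC, Trimmomatic, TopHat2, HTSeq and limma. The strand setting is not given in the sources used here.

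Estimated counts, deposited per transcript, were summed over genes of BDGP6.54 (Ensembl release 115) and rounded. Of 44 transcripts in no annotated gene, 23 were given to 22 genes whose deposited values they complete within 0.01%, chosen after seeing the data. edgeR 4.0.16 (R 4.3.3) was used with filterByExpr, TMM, a prior count of 0.125 and the quasi-likelihood test, with Benjamini-Hochberg adjustment over 9083 genes. The design had no covariate. SE and 95% intervals come from this fit. The script was tested on simulated data. Alternatives used DESeq2 1.42.0 and limma 3.58.1. TPM ratios were compared with exact permutation tests. Python 3.11.15, pandas 2.3.3, numpy 2.4.6 and matplotlib 3.10.9 made the tables and figures.

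The members and the lists of genes around them were chosen with earlier results of these data known. Named genes are the 8 members, genes of the lists that were called or at an end of their list or are direct partners of a member, the NF-Y subunits, and the gene most similar to each member called. raptor, mTor, eIF4E1, tgo, Hph, crc, Nprl2, Nprl3 and 14-3-3zeta are named as partners and were chosen after their values were seen. The list symbols Tor, hdc and Dl were found as mTor, heca and Delta through the synonyms in the deposited table. Libraries were numbered by the library names of the labels, and no pair was as close as sampling noise allows (smallest chi-square over its degrees of freedom 69.8). Promoter motifs were not analysed here. A listed gene of the foxo arm is not reported here and was taken out of the list counts.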

Additional observations from a re-analysis of the deposited data

How the results depend on the processing

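REPTOR was called in all 14 alternatives. The number of the 8 growth brakes called was 5 in the main comparison, 5 with DESeq2, RLE size factors, no filter on low counts, limma on the deposited values (pseudocount 1 or 10) or annotated transcripts only, and 3 with scaling by library totals. Leaving out each library in turn gave 1 to 4 called growth brakes and 2 to 10 called genes around them, against 5 and 11. Fewer samples enter those fits, and the number of genes called lower over all genes went from 731 to between 317 and 745. The sample titles number the libraries 1, 2, 3 and 1, 2, 5. Libraries with the same title number did not deviate together (r = 0.05 and -0.02). Such correlations cannot show whether libraries were prepared in pairs, and a pairing by library name was not examined. With the title numbers as a replicate block, 3 growth brakes (REPTOR, scyl and chrb) and 4 genes around them were called. Over all genes, 267 were then called higher and 516 lower. The block left REPTOR-BP with an adjusted p of 0.271, sima with 0.179 and PRAS40 with 0.0583, and gave chrb 0.0327. In the block fit, control library 3 and NF-YA RNAi library 5 share their title number with no other library. Its contrast therefore rested only on control libraries 1 and 2 and NF-YA RNAi libraries 2 and 4. How far this smaller set of libraries accounts for these changes was not tested. Directions turned only for log2 fold changes near 0. Thor had 0.040 with library totals, and -0.13 to 0.018 when a library was left out. mTor had 0.069 with library totals, 0.002 with the replicate block, and -0.20 to 0.11 when a library was left out. Nf-YB had -0.0004 with no filter, -0.046 and -0.045 with limma at pseudocounts 1 and 10, -0.029 with the replicate block, and -0.26 to 0.14 when a library was left out. The log2 difference of the REPTOR-BP to REPTOR ratio was 0.19 to 0.60 when a library was left out, of chrb to scyl 0.03 to 0.42, and of Thor to eIF4E1 -0.31 to -0.20. With 1646 counts or more per library for every growth brake, the spread between libraries and not the counting error limits the precision.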
